A study of Arabidopsis thaliana with 42 samples.

Results

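The 54 loci described here are those of the Arabidopsis mitochondrial genome in an RNA sequencing table, chosen as every row whose identifier begins with ATMG, out of 25069 loci in all. Each had at least 1 count, and 46 of the 54 passed the filter on low counts and were tested beside 24839 loci in total. Polyadenylated RNA of 2-week-old seedlings was sequenced in 4 genotypes with 3 libraries each: ddm1, and the double mutants ddm1nrpd1, ddm1nrpe1 (also spelled ddm1npre1 in the labels) and ddm1cmt2. Every plant was thus mutant in DDM1, a chromatin remodeller that keeps transposons methylated and silent, and the comparisons ask what a second mutation adds. RNA polymerases IV and V of plants have NRPD1 and NRPE1 as their largest subunits, and direct DNA methylation through small RNAs, and CMT2 is a chromomethylase of cytosines outside CG sites. Seed had been kept for 7 days at 4 °C and seedlings grew at 22 °C under 16 h light and 8 h dark. The labels of these libraries give no allele numbers and do not tell how replicates were raised, and the spread that p-values rest on may be technical.

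The plant mitochondrial genome carries the ribosomal RNAs and some transfer RNAs and proteins of the organelle's own ribosome, a minority of the subunits of the respiratory chain and the ATP synthase, proteins that mature cytochrome c, an intron maturase and many open reading frames of unknown use. All other mitochondrial proteins, the phage-type RNA polymerases that transcribe this genome among them, are encoded in the nucleus. In plant mitochondria a poly(A) tail marks an RNA for decay, so RNA selected on such tails is not a measure of the steady-state level of these transcripts. A large copy of the mitochondrial genome also lies near the centromere of nuclear chromosome 2, and no source used here tells how reads that match several loci were counted, and reads of a mitochondrial locus and of its nuclear copy may not be told apart. The sources used here pair no ATMG identifier with a gene name, a length or a sequence. The loci are therefore called by their identifiers, without roles, and levels are compared between genotypes for 1 locus at a time, not between loci.

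Libraries held 7842329 to 10160025 counts in ddm1, 14912871 to 24788784 in ddm1nrpd1, 16348102 to 18792851 in ddm1nrpe1, with 10838313 to 18131394 in ddm1cmt2. Every ddm1 library was thus shallower than every double mutant library, and the part of depth in the results was not tested. Replicates of a genotype correlated at r = 0.979 to 0.994 across loci. Whole-locus counts did not show the loss of the second gene: NRPD1 stood at 14.1 ± 0.725 CPM (counts scaled to a common library total) in ddm1nrpd1 against 5.74 ± 1.27 in ddm1, NRPE1 at 58.7 ± 5.65 in ddm1nrpe1 against 13.1 ± 1.08, and CMT2 at 26.8 ± 1.08 in ddm1cmt2 against 31.8 ± 2.99 (mean ± SD, n = 3). These counts do not check the labels, because no source used here gives the position of each mutation. All 6 leaf markers and all 6 root markers were counted in every genotype, none at 0 when summed over its 3 libraries. Of the seed and pollen markers, 0 of 4 and 0 of 3 were among the loci counted. The summed level of the root markers was 120.0 to 155.4 CPM in ddm1, 79.3 to 98.3 in ddm1nrpd1, 92.2 to 113.9 in ddm1nrpe1, with 137.4 to 209.2 in ddm1cmt2, and that of the leaf markers was 24192 to 27078, 22837 to 25310, 20292 to 26548 and 35355 to 38608 CPM. The sum of the root markers was thus lowest in the same 2 genotypes as the summed mitochondrial loci. By the test described below, 4 of the 6 were lower and 0 higher than ddm1 in ddm1nrpd1, and 4 lower and 1 higher in ddm1nrpe1. Of all tested loci, 21.7% and 23.9% were lower and 22.9% and 26.5% higher. The part of root markers in the results was not tested. In such bulk samples, fewer cells or organelles of a kind and less RNA in each cannot be told apart.

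Summed over the 3 libraries of a genotype, the mitochondrial loci held 14788 counts for ddm1, 10173 for ddm1nrpd1, 11214 for ddm1nrpe1 and 16957 for ddm1cmt2. Per library total these were 552.7 CPM in ddm1 (95% Clopper-Pearson interval 543.8 to 561.7, counting error only), 181.7 in ddm1nrpd1 (178.2 to 185.3), 210.5 in ddm1nrpe1 (206.7 to 214.5), with 417.2 in ddm1cmt2 (411.0 to 423.6). Mitochondrial loci thus took the least of the polyadenylated RNA in the polymerase double mutants and the most in ddm1, with ddm1cmt2 between. Scaled by TMM, a factor per library that most loci share, the summed level was 556.3, 485.1 and 557.0 CPM in the ddm1 libraries and 150.7, 179.0 and 189.0 in ddm1nrpd1. It was 249.3, 233.2 and 149.3 in ddm1nrpe1, with 449.8, 421.3 and 509.1 in ddm1cmt2. The libraries of both polymerase double mutants lay below all ddm1 and all ddm1cmt2 libraries and overlapped each other, and those of ddm1cmt2 overlapped those of ddm1. The ddm1 mean was 3.08-fold that of ddm1nrpd1, 2.53-fold that of ddm1nrpe1 and 1.16-fold that of ddm1cmt2. Replicate 3 of ddm1nrpe1 stood apart from the other two of its group, and without it the mean share of ddm1nrpe1 was 245.6 CPM before TMM scaling.

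**Figure D1:**
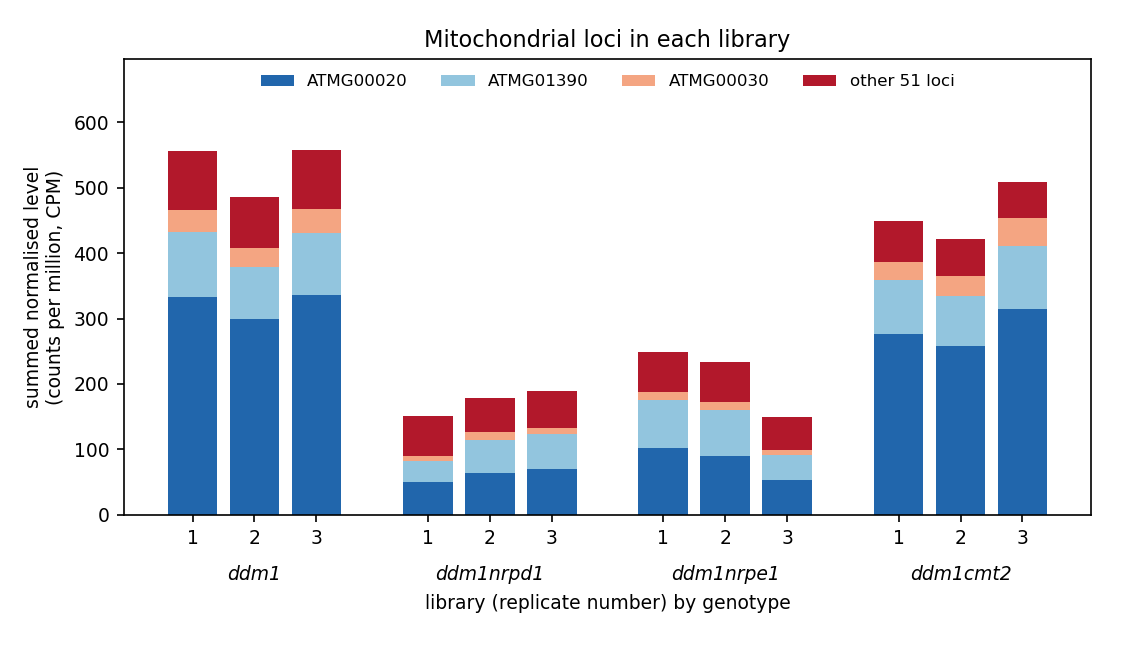
Stacked bars give the summed normalised level (CPM) of the mitochondrial loci in each of the 12 libraries, split into ATMG00020, ATMG01390, ATMG00030 and the other 51 loci. The ddm1nrpd1 and ddm1nrpe1 bars reach 149.3 to 249.3 CPM, the ddm1 and ddm1cmt2 bars 421.3 to 557.0 CPM, and most of that gap lies in ATMG00020.

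A few loci carried most of these counts: ATMG00020 held 51.4% of all mitochondrial counts of the 12 libraries, ATMG00020 and ATMG01390 together 73.2%, and with ATMG00030 79.5%. Lengths were not used, so this is a share of reads and not of transcripts. The makeup differed between genotypes. ATMG00020 made up 60.6% ± 1.05 of the mitochondrial counts in ddm1 and 61.5% ± 0.327 in ddm1cmt2, but 35.3% ± 1.55 in ddm1nrpd1 and 38.3% ± 2.45 in ddm1nrpe1 (mean ± SD, n = 3). The number of ATMG00020 counts per ATMG01390 count, a ratio within a library that no scaling changes, was 3.34 to 3.82 in ddm1 and 3.26 to 3.35 in ddm1cmt2, against 1.22 to 1.65 in ddm1nrpd1 and 1.27 to 1.43 in ddm1nrpe1. Counts on the mitochondrial loci were thus not scaled down evenly in the polymerase double mutants.

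Without ATMG00020, ATMG01390 and ATMG00030, the picture by genotype was another. The other 51 loci summed to 77.9 to 90.8 CPM in the ddm1 libraries (mean 86.1 ± 7.13), 52.2 to 60.9 in ddm1nrpd1 (56.7 ± 4.31), 50.9 to 61.2 in ddm1nrpe1 (57.6 ± 5.81), with 54.7 to 63.2 in ddm1cmt2 (58.2 ± 4.42). All 3 double mutants lay below every ddm1 library and overlapped each other. In the sum of these 51 loci ddm1cmt2 therefore stood with the other double mutants. In the 3 loci with the most counts it stood nearer to ddm1. Like sums did not mean that every locus was alike. Of the 43 tested loci among the 51, 12 were higher and 6 lower in ddm1cmt2 than in ddm1nrpd1 by the test described below. Against ddm1nrpe1, 7 were higher and 5 lower. Of all tested loci, 26.0% and 26.9% were higher and 24.5% and 28.2% lower in these 2 comparisons. The 12 loci were thus near the share of all tested loci, and the other counts were below it.

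The model, edgeR's quasi-likelihood F test over all 24839 tested loci with Benjamini-Hochberg adjustment at 0.05, was fitted on the 12 libraries together, and the words rose and fell below mean an adjusted p under that threshold. In ddm1nrpd1 against ddm1, 19 of the 46 tested mitochondrial loci fell and 0 rose, while 21.7% of all tested loci fell and 22.9% rose. In ddm1nrpe1 against ddm1, 20 fell and 0 rose, while 23.9% of all tested loci fell and 26.5% rose. In ddm1cmt2 against ddm1, 15 fell and 0 rose, while 17.7% of all tested loci fell and 18.4% rose. In percent these were 41.3%, 43.5% and 32.6% of the tested mitochondrial loci, each above the share of all tested loci that fell. In each of these 3 comparisons, 1 locus was higher at an unadjusted p under 0.05, and DESeq2 and limma-voom each called 0 higher. DESeq2 called 16 lower in ddm1nrpd1, 18 in ddm1nrpe1 and 10 in ddm1cmt2, and limma-voom 19, 20 and 13. The shares of all loci called were not worked out with these tools. The median log2 fold change of the 46 loci was -0.76 in ddm1nrpd1, -0.71 in ddm1nrpe1 and -0.52 in ddm1cmt2, with 39, 40 and 36 of the 46 below 0, and the median of all tested loci lay within 0.01 of 0 in each. All 3 comparisons share the ddm1 libraries, so their values are given side by side only. The ddm1cmt2 count rested on single libraries: it was 9 without replicate 3 of ddm1 or replicate 2 of ddm1cmt2, and 8 without replicate 3 of ddm1cmt2. Leaving out replicate 1 of ddm1, the ddm1nrpd1 comparison gained 1 locus that rose, ATMG01010, named after its value was seen.

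**Figure D2:**
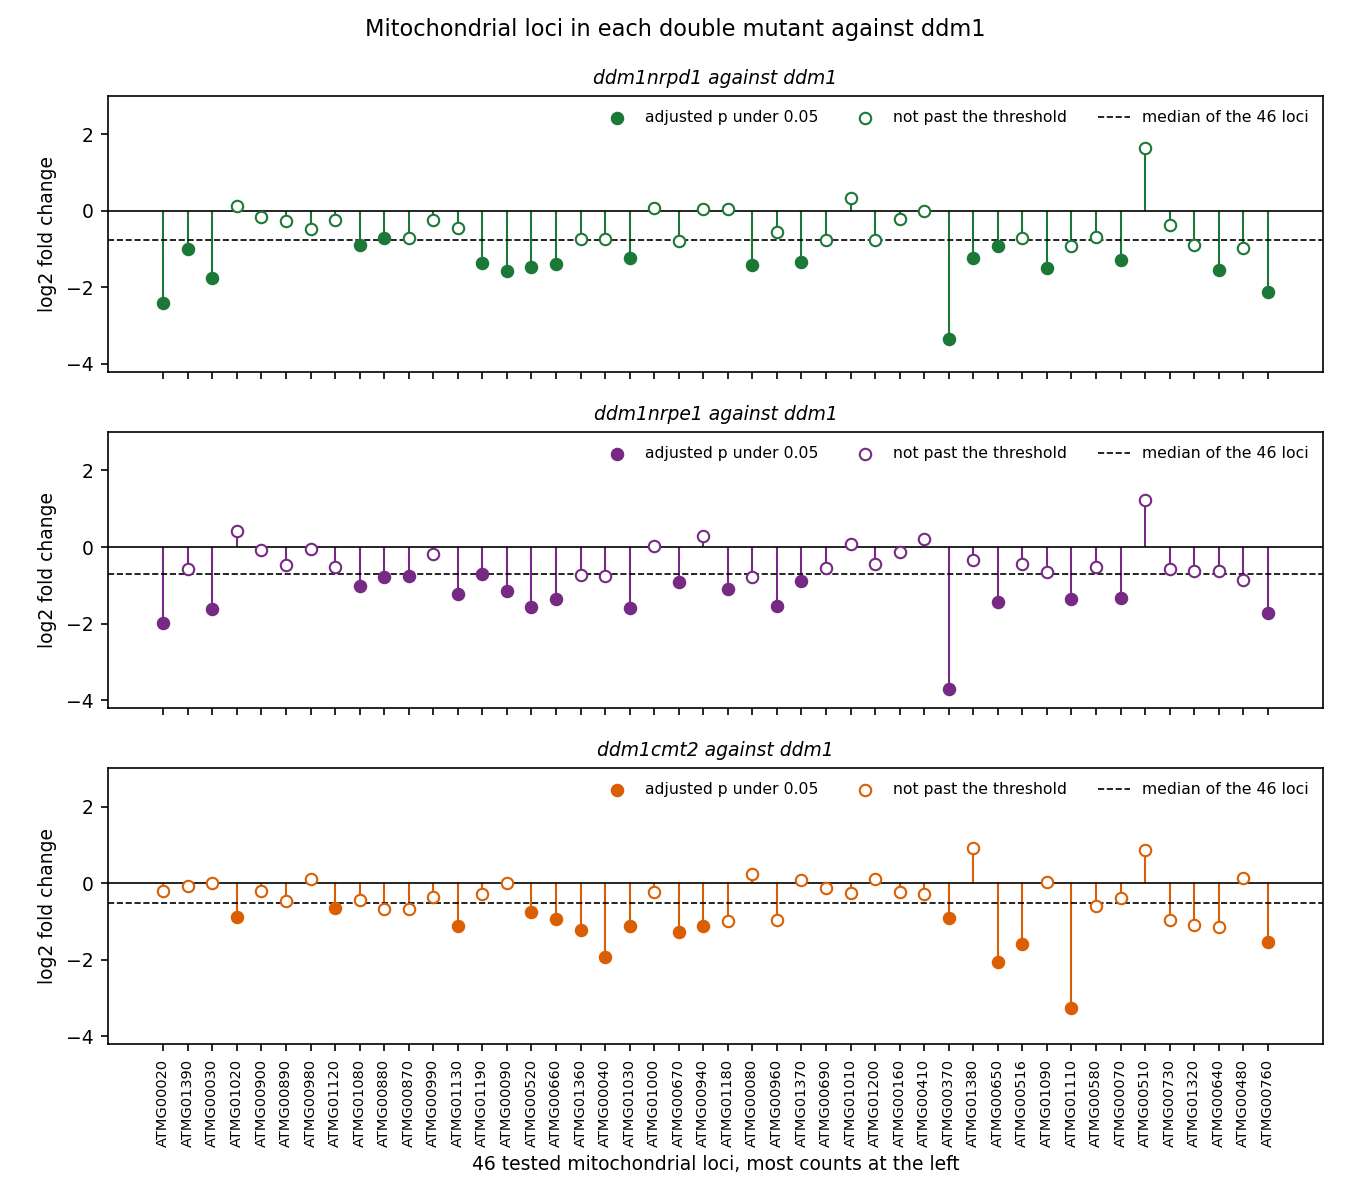
Each dot is the log2 fold change of 1 of the 46 tested mitochondrial loci in a double mutant against ddm1, in order of total counts with the highest at the left. Filled dots passed the adjusted p of 0.05, and the dashed lines mark medians of -0.76, -0.71 and -0.52. The 3 loci at the left are below 0 in both polymerase double mutants, ATMG01390 unfilled in ddm1nrpe1, and near 0 in ddm1cmt2.

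ATMG00020 was the locus with the most counts. It stood at 332.4, 299.8 and 336.4 CPM in the ddm1 libraries, 50.9, 63.2 and 69.7 in ddm1nrpd1, 101.7, 89.5 and 53.6 in ddm1nrpe1, with 276.0, 257.8 and 314.8 in ddm1cmt2. Both polymerase double mutants lay far below ddm1 and ddm1cmt2 with no overlap, and ddm1 and ddm1cmt2 overlapped. The log2 fold change against ddm1 was -2.40 ± 0.20 (SE, adjusted p = 6.54e-07) in ddm1nrpd1 and -1.99 ± 0.19 (2.98e-06) in ddm1nrpe1, a level 5.27-fold and 3.96-fold lower. In ddm1cmt2 it was -0.19 ± 0.19 (adjusted p = 0.459), and ddm1cmt2 was above ddm1nrpd1 by 2.21 ± 0.20 (8.31e-07) and above ddm1nrpe1 by 1.79 ± 0.19 (4.65e-06).

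ATMG00030 behaved alike. It was at 33.5, 29.0 and 36.9 CPM in ddm1, 8.17, 11.9 and 9.21 in ddm1nrpd1, 13.0, 12.1 and 7.22 in ddm1nrpe1, with 27.1, 29.7 and 42.9 in ddm1cmt2. Again the polymerase double mutants lay below both other genotypes and overlapped each other. It fell by 1.75 ± 0.23 on the log2 scale in ddm1nrpd1 (adjusted p = 6.07e-05) and by 1.63 ± 0.23 in ddm1nrpe1 (9.54e-05), and its log2 fold change in ddm1cmt2 was 0.00 ± 0.22 (adjusted p = 0.999).

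ATMG01390, second in counts, moved less. Its levels were 99.6, 78.4 and 94.0 CPM in ddm1, 30.8, 51.8 and 53.2 in ddm1nrpd1, 73.8, 70.5 and 37.5 in ddm1nrpe1, with 83.5, 77.0 and 96.7 in ddm1cmt2. It fell in ddm1nrpd1 (2.00-fold lower, SE 0.26 on the log2 scale, adjusted p = 0.0102). In ddm1nrpe1 every library lay below every ddm1 library, but the change did not pass the test in the 12-library fit (-0.58 ± 0.26, adjusted p = 0.0855). Of 15 alternatives, only 1 called it, DESeq2 (adjusted p = 0.0268). ddm1cmt2 overlapped ddm1 (-0.08 ± 0.26, adjusted p = 0.837).

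ATMG01020, next in counts after these 3, took another course. It had 6.37, 7.28 and 6.44 CPM in ddm1, 8.81, 5.87 and 7.39 in ddm1nrpd1, 8.87, 9.54 and 8.57 in ddm1nrpe1, with 4.14, 4.08 and 2.56 in ddm1cmt2. Here ddm1cmt2 was the lowest genotype, below every library of the other 3. The log2 fold change of ddm1cmt2 was -0.88 ± 0.21 against ddm1 (adjusted p = 0.00335), -1.01 ± 0.19 against ddm1nrpd1 (0.000415) and -1.31 ± 0.19 against ddm1nrpe1 (3.29e-05). Against ddm1 it was 0.13 ± 0.19 in ddm1nrpd1 (adjusted p = 0.60) and 0.43 ± 0.18 in ddm1nrpe1 (0.0622).

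**Figure D3:**
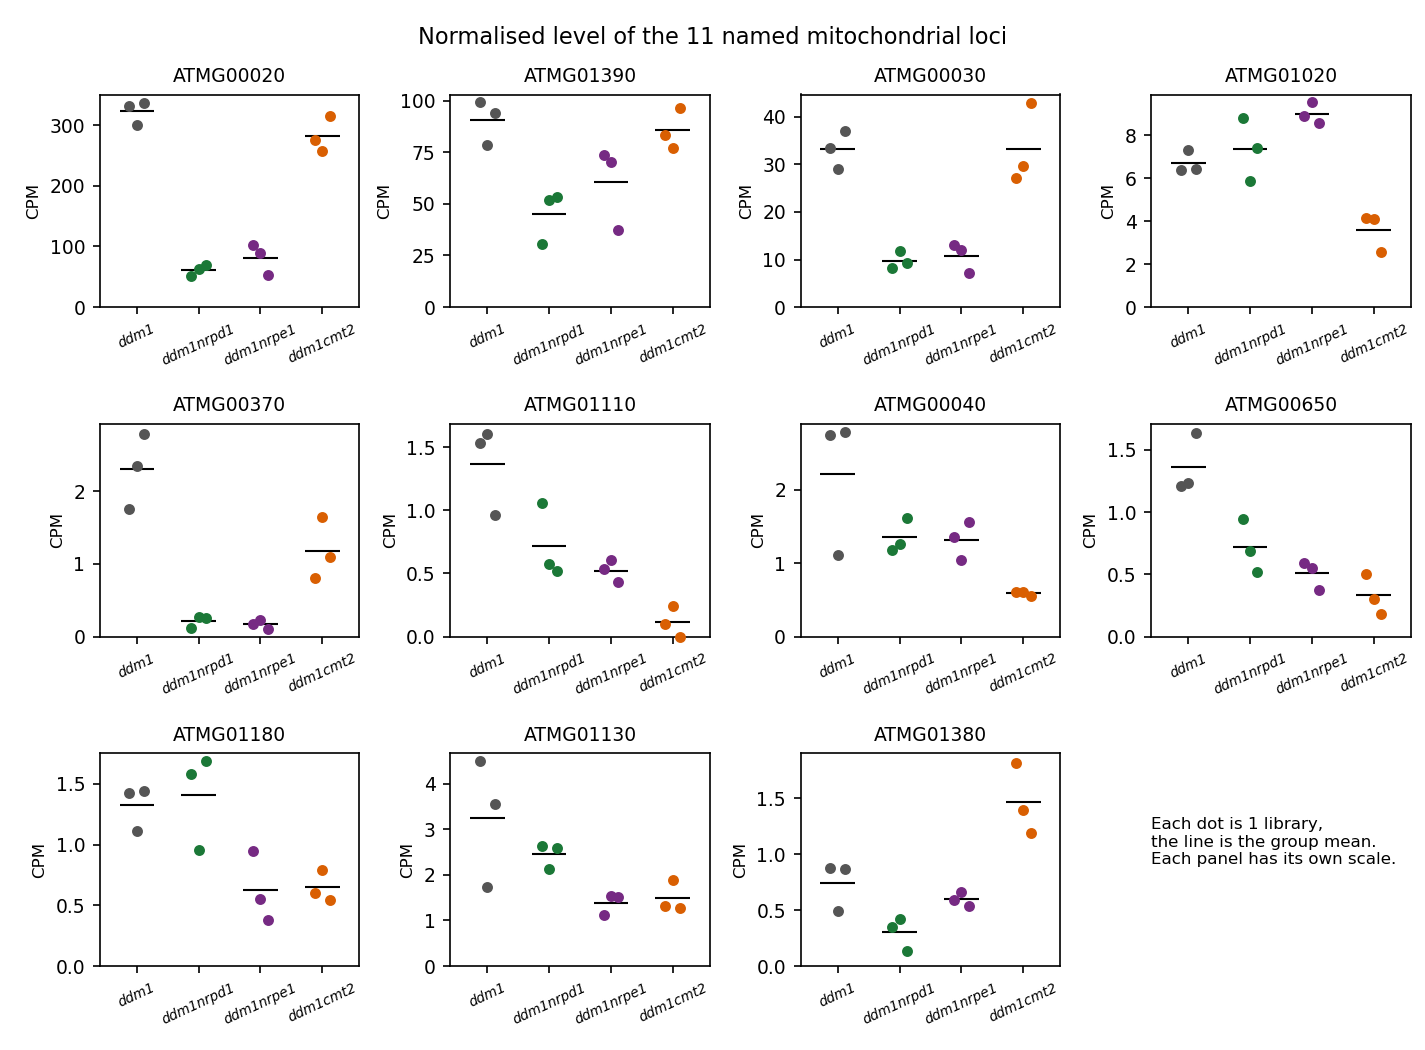
Dots give the normalised level (CPM) of the 11 named mitochondrial loci in each library, with 3 libraries and a mean line per genotype and a separate scale in each panel. ATMG00020, ATMG00030 and ATMG00370 are lowest in ddm1nrpd1 and ddm1nrpe1, and ATMG01020, ATMG01110, ATMG00040 and ATMG00650 have their lowest means in ddm1cmt2.

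The greatest fall in both polymerase double mutants was that of ATMG00370, a locus with few counts. Its raw counts were 16, 19 and 29 in ddm1, 2, 7 and 4 in ddm1nrpd1, 3, 4 and 2 in ddm1nrpe1, with 8, 27 and 12 in ddm1cmt2, although the ddm1 libraries were shallower than those of either polymerase double mutant. Its level was 2.30 ± 0.517 CPM in ddm1, 0.215 ± 0.084 in ddm1nrpd1, 0.169 ± 0.057 in ddm1nrpe1, with 1.18 ± 0.424 in ddm1cmt2. It fell by 3.34 ± 0.40 on the log2 scale in ddm1nrpd1 (adjusted p = 8.1e-06) and by 3.71 ± 0.43 in ddm1nrpe1 (4.93e-06), and ddm1cmt2 was above both, by 2.44 ± 0.43 (0.000199) and 2.81 ± 0.46 (9.2e-05). Its fall in ddm1cmt2 against ddm1 (-0.90 ± 0.33, adjusted p = 0.0413) was not called by DESeq2 (adjusted p = 0.0962), nor in 4 of the 6 fits that left out 1 library of that comparison.

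In ddm1cmt2 the leading loci were others. ATMG01110 had raw counts of 14, 13 and 10 in ddm1 and 1, 4 and 0 in ddm1cmt2, at 18, 15 and 8 in ddm1nrpd1 and 9, 11 and 8 in ddm1nrpe1. It fell in ddm1cmt2 by 3.27 ± 0.60 on the log2 scale against ddm1 (adjusted p = 0.000547), by 2.34 ± 0.62 against ddm1nrpd1 (0.00493) and by 1.91 ± 0.65 against ddm1nrpe1 (0.0212), the last of which was lost without replicate 2 of ddm1nrpe1, or without replicate 1 or 3 of ddm1cmt2 (adjusted p up to 0.0713). It was also lower than ddm1 in ddm1nrpe1 (-1.35 ± 0.43, adjusted p = 0.0162), lost without replicate 1 or 2 of ddm1, and in ddm1nrpd1 it was at -0.93 ± 0.41 (0.0765), which passed without replicate 1 of ddm1nrpd1 (0.0332). ATMG00040 stood at 2.75, 1.11 and 2.79 CPM in ddm1 and 0.606, 0.608 and 0.548 in ddm1cmt2, and fell by 1.92 ± 0.38 (adjusted p = 0.000957). ATMG00650 was at 1.21, 1.23 and 1.63 CPM in ddm1 and 0.505, 0.304 and 0.183 in ddm1cmt2, and fell by 2.06 ± 0.43 (adjusted p = 0.00159). For all 3 loci the ddm1cmt2 libraries lay below every ddm1 library. ATMG00650 also fell in ddm1nrpd1 (-0.93 ± 0.35, adjusted p = 0.0396, lost with DESeq2 and in 5 of the 6 fits without 1 library) and in ddm1nrpe1 (-1.43 ± 0.37, adjusted p = 0.00479). For ATMG00040 the values were -0.75 ± 0.31 (adjusted p = 0.0616) and -0.76 ± 0.31 (0.0528), neither past the test. The first passed without replicate 2 of ddm1 (adjusted p = 0.00754), and the second in 7 of 15 alternatives, among them upper-quartile factors (0.0376) and leaving out replicate 2 of ddm1 (0.00622) or replicate 3 of ddm1nrpe1 (0.0461).

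Comparing the 2 polymerase double mutants, ddm1nrpe1 against ddm1nrpd1, 2 of 46 loci fell and 0 rose, while 16.4% of all tested loci fell and 19.7% rose. At an unadjusted p under 0.05, 4 were higher, and neither DESeq2 nor limma-voom called any higher. The 2 loci were ATMG01180, at 1.59, 0.953 and 1.69 CPM in ddm1nrpd1 and 0.946, 0.551 and 0.377 in ddm1nrpe1, and ATMG01130, at 2.64, 2.14 and 2.59 against 1.12, 1.54 and 1.51. The log2 fold change was -1.14 ± 0.35 for ATMG01180 (adjusted p = 0.0185) and -0.80 ± 0.29 for ATMG01130 (0.0402). The first call was lost in 4, and the second in all 6, of the fits that left out 1 of these libraries. Without replicate 3 of ddm1nrpe1, neither fell and 4 loci rose in their place: ATMG00020 by 0.64 (adjusted p = 0.00147), ATMG01390 by 0.67 (0.0177), ATMG01190 by 0.82 (0.0397) and ATMG00640 by 1.19 (0.0351). No locus fell without replicate 1 or 3 of ddm1nrpd1, or replicate 2 of ddm1nrpe1, either, so the calls between these 2 genotypes depended on single libraries of both.

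Set against ddm1nrpd1, ddm1cmt2 had 15 of 46 loci that rose and 6 that fell, while 26.0% of all tested loci rose and 24.5% fell. Set against ddm1nrpe1 it had 9 that rose and 5 that fell, while 26.9% of all tested loci rose and 28.2% fell. In percent, 32.6% rose and 13.0% fell against ddm1nrpd1, and 19.6% rose and 10.9% fell against ddm1nrpe1. Only the first of these lay above the share of all tested loci. The median log2 fold change of the 46 loci was 0.04 and 0.11, near that of all tested loci (0.02 and -0.00). Against ddm1nrpd1, 24 loci were above 0 and 22 below, with extremes from -2.34 to 2.44. The 15 that rose against ddm1nrpd1 were 9 without replicate 2 of ddm1nrpd1. The 5 that fell against ddm1nrpe1 were 3 without replicate 2 or 3 of ddm1nrpe1 or replicate 1 or 2 of ddm1cmt2. Beside the loci above, ATMG01380 rose: it was at 0.352, 0.419 and 0.13 CPM in ddm1nrpd1, 0.592, 0.661 and 0.539 in ddm1nrpe1, with 1.82, 1.40 and 1.19 in ddm1cmt2, above ddm1nrpd1 by 2.16 ± 0.38 (adjusted p = 0.000198) and above ddm1nrpe1 by 1.27 ± 0.34 (0.00543). In ddm1 it had 0.878, 0.494 and 0.865 CPM, below every ddm1cmt2 library, a difference that did not pass the test (0.93 ± 0.38, adjusted p = 0.0647).

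The remaining loci had between 83 and 648 counts over the 12 libraries if tested, and their levels were at most 3.99 CPM in any genotype. ATMG00900, with 648 counts, showed no called difference in the 6 comparisons, and its mean level ran from 3.51 CPM in ddm1cmt2 to 3.99 in ddm1. ATMG00510 had the highest log2 fold change in ddm1nrpd1 (1.65 ± 0.72, adjusted p = 0.0762), from 3, 0 and 4 counts in ddm1 to 13, 19 and 15, without passing the test. ATMG00870 and ATMG00880 were counted almost alike: they differed by at most 1 count in any library, were equal in 9 of the 12 and should not be read as independent measurements. The 8 loci that did not pass the filter held 19 to 73 counts each over the 12 libraries: ATMG00060, ATMG00180, ATMG00220, ATMG00280, ATMG00513, ATMG00590, ATMG01170 and ATMG01330. Of these ATMG00280, named after its counts were seen, had 12 counts in ddm1 and 1 each in ddm1nrpd1 and ddm1nrpe1. Its level was 25.1 times (95% counting interval 3.72 to 1073.4) and 23.9 times (3.53 to 1021.2) higher in ddm1. With 5 counts in ddm1cmt2, it was 3.65 times higher in ddm1 (1.20 to 13.2). ATMG00513 had 11 counts in ddm1 and 2 in ddm1cmt2, a pooled level 8.35 times higher in ddm1 (1.82 to 77.6). Its ddm1 counts were 1, 1 and 9, so that difference rested on replicate 3 of ddm1. All other intervals of the 8 loci against ddm1 included a ratio of 1. These intervals leave out the spread between replicates and were not adjusted for the number of loci, so they are no test of genotype.

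The other organelle, the plastid, moved in the same direction and by more. Its 111 loci took 1.57% to 1.97% of the counts in ddm1, 0.164% to 0.263% in ddm1nrpd1, 0.124% to 0.309% in ddm1nrpe1, with 0.779% to 0.924% in ddm1cmt2. The mitochondrial loci therefore had 2.89 to 3.68 counts per 100 plastid counts in ddm1, 7.42 to 9.59 in ddm1nrpd1, 8.35 to 11.9 in ddm1nrpe1, with 4.22 to 6.13 in ddm1cmt2. No ddm1 library overlapped a double mutant in this ratio. The ddm1nrpe1 library with the lowest mitochondrial share, replicate 3, was also the one with the lowest plastid share.

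**Figure D4:**
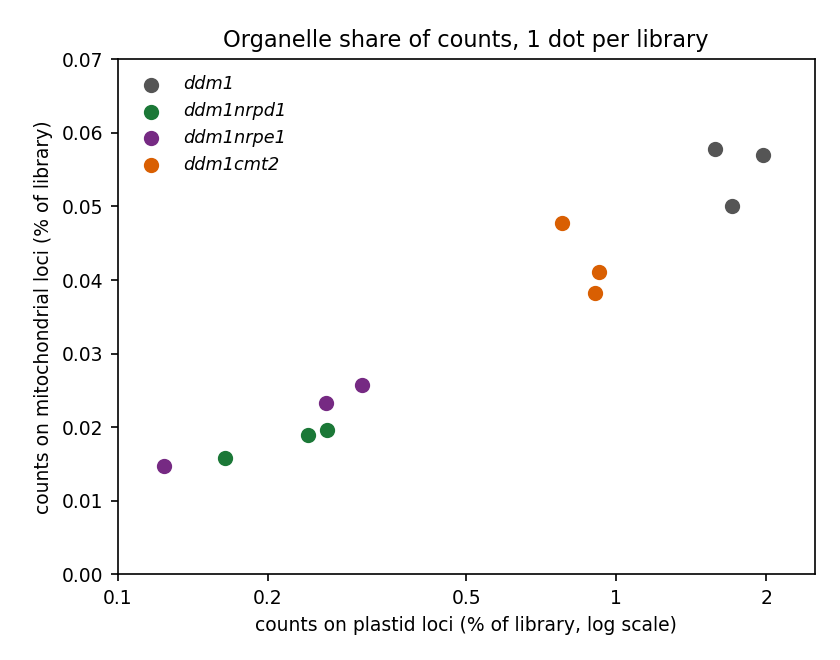
Each dot is 1 library, placed by the percent of its counts on the 111 plastid loci (log scale) and on the 54 mitochondrial loci. The ddm1 libraries lie at 1.57% to 1.97% plastid and 0.0501% to 0.0579% mitochondrial counts, and the 6 libraries of the polymerase double mutants at 0.124% to 0.309% and 0.0147% to 0.0258%.

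The nuclear loci of the chromosome 2 insertion had medians near those of the mitochondrial loci. Of 63 loci listed over its span, 55 were tested, and 27 fell and 3 rose in ddm1nrpd1, 28 and 4 in ddm1nrpe1, and 20 and 1 in ddm1cmt2, all against ddm1, with median log2 fold changes of -0.67, -0.74 and -0.65. Over all tested loci 21.7%, 23.9% and 17.7% fell, and 22.9%, 26.5% and 18.4% rose. The list also held ordinary nuclear genes at its end. Cut before the first of these, the transporter gene ABCC13, after the values were seen, it kept 46 tested loci, of which 26, 25 and 19 fell and 0, 1 and 0 rose. Those 54 loci summed to 212.2 to 237.0 CPM in ddm1, 114.9 to 137.2 in ddm1nrpd1, 121.9 to 138.1 in ddm1nrpe1, with 135.0 to 146.8 in ddm1cmt2. All 3 double mutants lay below ddm1, as they did for the 51 mitochondrial loci outside the top 3, and which of the 2 genomes the reads came from was not tested.

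Nuclear genes of the respiratory chain had medians near 0. Of 27 genes of the respiratory chain and ATP synthase, 5 rose and 2 fell in ddm1nrpd1, 8 rose and 3 fell in ddm1nrpe1, and 1 rose and 1 fell in ddm1cmt2, with medians of 0.08, 0.08 and 0.03. The shares that rose in the polymerase double mutants lay near the 22.9% and 26.5% of all tested loci. These small counts moved with single libraries, from 3 to 7 and from 4 to 11 that rose in the polymerase double mutants. CYTC-2, a cytochrome c gene, stood at 22.2 ± 3.24 CPM in ddm1 and rose by 0.96 ± 0.17 in ddm1nrpd1 (adjusted p = 0.000343) and by 0.55 ± 0.17 in ddm1nrpe1 (0.0133), with -0.02 ± 0.17 in ddm1cmt2 (0.936). SDH1-1, a flavoprotein subunit of succinate dehydrogenase, rose by 0.37 ± 0.11 and 0.33 ± 0.11 in the polymerase double mutants (adjusted p = 0.0101 and 0.0173). The ddm1nrpe1 calls of both genes were lost without replicate 3 of ddm1 or replicate 1 of ddm1nrpe1, and that of SDH1-1 also without replicate 2 of ddm1nrpe1. AT1G79010 rose in ddm1nrpd1 (0.38 ± 0.10), ddm1nrpe1 (0.50 ± 0.10) and ddm1cmt2 (0.30 ± 0.10, adjusted p = 0.0251), the last lost without replicate 1 or 3 of ddm1 or replicate 1 of ddm1cmt2. AT5G47030 fell in ddm1nrpd1 (-0.29 ± 0.09, lost without replicate 2 of ddm1 at an adjusted p of 0.0507) and ddm1nrpe1 (-0.23 ± 0.09, adjusted p = 0.0400, lost in 4 of the 6 fits without 1 library).

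Of 24 nuclear genes for the upkeep of mitochondrial DNA and RNA, 7 rose and 4 fell in ddm1nrpd1, 2 rose and 6 fell in ddm1nrpe1, and 1 rose and 10 fell in ddm1cmt2, and the medians were 0.09, -0.12 and -0.26. Of all tested loci 22.9%, 26.5% and 18.4% rose and 21.7%, 23.9% and 17.7% fell, so the counts that fell in the polymerase double mutants, and that rose in ddm1nrpd1, were near the background. The 6 that fell in ddm1nrpe1 were 3 without its replicate 2. MGP3 (AT1G68990), which encodes a phage-type RNA polymerase of mitochondria, was at 25.0 ± 3.16 CPM in ddm1, 41.2 ± 1.91 in ddm1nrpd1, 23.0 ± 2.45 in ddm1nrpe1, with 13.0 ± 0.335 in ddm1cmt2. It rose in ddm1nrpd1 (0.72 ± 0.11, adjusted p = 7.33e-05), did not pass the test in ddm1nrpe1 (-0.12 ± 0.11, 0.372) and fell in ddm1cmt2 (-0.95 ± 0.12, 1.45e-05). This order of the genotypes was not that of the mitochondrial sum, and a link of MGP3 to that sum was not tested. SCA3, a related polymerase of plastids, rose by 0.37 ± 0.11 in ddm1nrpd1 (adjusted p = 0.0139). It fell by 0.35 ± 0.11 in ddm1nrpe1 (0.0190) and by 1.10 ± 0.12 in ddm1cmt2 (3.94e-06). The rise was lost without replicate 2 of ddm1nrpd1, and the fall in ddm1nrpe1 without replicate 1 of ddm1 or replicate 2 of ddm1nrpe1. AT5G15700, listed as RPOTmp, another phage-type RNA polymerase, rose in ddm1nrpd1 (0.61 ± 0.15, adjusted p = 0.00436). Its change was 0.00 ± 0.16 in ddm1nrpe1 (0.986) and -0.23 ± 0.17 in ddm1cmt2 (0.291). AT1G30680, listed as the Arabidopsis homolog of TWINKLE, a DNA helicase of organelles, rose in all 3 (0.74 ± 0.10, 0.36 ± 0.10 and 0.34 ± 0.10), the last lost without replicate 1 of ddm1 or of ddm1cmt2. OSB1, a single-stranded DNA binding protein of mitochondria, rose in ddm1nrpd1 (0.86 ± 0.17, adjusted p = 0.000906) and ddm1nrpe1 (0.52 ± 0.18, 0.0225), the latter lost with DESeq2 and without replicate 3 of ddm1 or replicate 2 of ddm1nrpe1.

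Nuclear genes known to respond to mitochondrial stress made up another list. Of 17 listed, 14 were tested, and 8 rose in ddm1nrpd1, 9 in ddm1nrpe1 and 4 in ddm1cmt2, while 0 fell in edgeR, DESeq2 or limma-voom or at an unadjusted p under 0.05, and the medians were 0.80, 0.82 and 0.19. Of all tested loci, 22.9%, 26.5% and 18.4% rose in the same order of genotypes. Without replicate 3 of ddm1cmt2, 1 fell in that genotype, and without replicate 3 of ddm1, 6 rose in ddm1nrpe1. AOX1A, the alternative oxidase that bypasses part of the respiratory chain, was at 19.1 ± 6.31 CPM in ddm1, 40.4 ± 2.93 in ddm1nrpd1, 35.1 ± 3.61 in ddm1nrpe1, with 63.4 ± 5.58 in ddm1cmt2, and rose by 1.09 ± 0.18 (adjusted p = 0.000253), 0.89 ± 0.18 (0.0011) and 1.74 ± 0.18 (6.01e-06). BCS1 (AT3G50930), an ATPase of the outer mitochondrial membrane, rose from 6.46 ± 2.67 CPM to 22.4 ± 2.92 in ddm1nrpd1 and 22.1 ± 5.65 in ddm1nrpe1 (1.82 ± 0.33 and 1.79 ± 0.34), and its rise in ddm1cmt2 (1.02 ± 0.35, adjusted p = 0.0431) was lost in 7 of 15 alternatives, at adjusted p from 0.0506 with upper-quartile factors to 0.144 without replicate 3 of ddm1, and also without replicate 1 of ddm1 or replicate 3 of ddm1cmt2. AT5G51440 rose from 1.45 ± 0.563 CPM to 9.63 ± 3.49 and 12.3 ± 3.61 in the polymerase double mutants (2.76 ± 0.37 and 3.11 ± 0.37). In ddm1cmt2 it did not pass the test. There its log2 fold change was 0.88 to 1.43 over 15 alternatives, and 4 called it, among them DESeq2 (adjusted p = 0.0169). NAC13, a transcription factor of the response, rose by 0.86 ± 0.17 and 0.62 ± 0.17 in them (adjusted p = 0.00064 and 0.0062), with 0.09 ± 0.18 in ddm1cmt2 (0.714). The list responds to many stresses beside mitochondrial ones, and its link to the mitochondrial loci was not tested.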

How the data were processed

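The authors deposited 1 table of raw counts per locus and CPM (counts scaled to a common library total) for 12 RNA sequencing libraries, 3 of each of 4 genotypes. The deposited CPM values equal each count over the library's sum. The submitters' processing notes list Trimmomatic, TopHat, HTSeq, edgeR, Bowtie2 and TAIR10 among other tools, without roles or versions, and no source used here gives the strand setting or the treatment of reads with several matches. The other 30 of the 42 samples of the series were not analysed here. Precision is set by libraries of 7842329 to 24788784 counts, in which intervals cover counting error only.

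The raw counts, with filterByExpr and TMM factors, were fitted with edgeR 4.0.16 (glmQLFit, robust, in R 4.3.3) over 4 group means with 8 residual degrees of freedom. Benjamini-Hochberg adjustment ran over all 24839 tested loci. Levels are TMM-scaled CPM, and SE is the absolute log2 fold change over the square root of F. The method was tested on simulated data. DESeq2 1.42.0, limma 3.58.1 (voom), other scalings and filters, 6 libraries alone, a replicate block and leaving out each library were alternatives. Named loci were the 4 with the most counts and, per comparison, up to 3 called with the smallest adjusted p (in each direction against ddm1). Of each nuclear list up to 4 genes were named, those called in most comparisons against ddm1, and the 3 phage-type RNA polymerase genes always. The members and gene lists were chosen with earlier results of these data known. Lists by the role of mitochondrial genes could not be applied, since no source used here pairs ATMG identifiers with names. Same-numbered libraries of different genotypes did not deviate together (r from -0.32 to 0.25 over 18 pairs), so the numbers were not taken to pair them.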

Additional observations from a re-analysis of the deposited data

How the results depend on the processing

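Under the alternatives run, no named value changed sign past the threshold. The falls of ATMG00020 and ATMG00030 in both polymerase double mutants kept their call in all 15 alternatives of each comparison. With CPM of at least 1 in 3 libraries, the median in ddm1cmt2 against ddm1 was -0.65. With the 6 libraries of a comparison alone, 1 locus rose in ddm1nrpe1 against ddm1 and 9 rose in ddm1cmt2 against ddm1nrpd1. With a replicate block, 1 locus fell in ddm1nrpe1 against ddm1nrpd1. Without the 2 loci with the most counts, an alternative chosen after seeing the data, the shares were 123.1, 69.4, 69.0 and 84.2 CPM in ddm1, ddm1nrpd1, ddm1nrpe1 and ddm1cmt2. Leaving out 1 library at a time, 14 to 22 loci fell and 0 to 1 rose in ddm1nrpd1 against ddm1, 14 to 20 fell in ddm1nrpe1 and 8 to 14 fell in ddm1cmt2. In ddm1nrpe1 against ddm1nrpd1, 0 to 4 rose and 0 to 1 fell. Against ddm1nrpd1, 9 to 13 rose and 4 to 5 fell in ddm1cmt2, and against ddm1nrpe1 6 to 8 rose and 3 to 4 fell. The medians ran from -0.83 to -0.75, -0.85 to -0.52 and -0.63 to -0.37 against ddm1, and from -0.00 to 0.18, -0.07 to 0.13 and -0.10 to 0.23 in those 3 comparisons. Causes of these shifts were not tested. The alternatives without ribosomal RNA loci and without loci that have near-identical copies were not run, for want of names and sequences. A single count was worth 0.0381 to 0.123 CPM, which limits the loci under 1 CPM.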
